A study of Mus musculus with 8 samples.

Results

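The 53 genes described here encode the machinery that takes a cell through G2 and mitosis: cyclins and their kinase, checkpoint and kinetochore proteins, spindle motors, cytokinesis factors and chromosome condensers. They were chosen by name from a list of G2, M phase, spindle and kinetochore genes, and all 53 were found among the 55418 gene symbols of the count table. The choice was made with earlier results of these data known. Shares of all genes printed beside the 53 therefore describe them and are not independent support. Every one had a count in all 8 libraries, with 40 as the lowest, and all 53 passed the filter on low counts that left 17522 genes for testing.

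A cell enters mitosis when cyclin B activates the kinase Cdk1, chromosomes then attach to the spindle through the kinetochore, a protein assembly on the centromere, and a checkpoint holds back separation until every chromosome is attached. The anaphase-promoting complex, a ubiquitin ligase, next marks cyclins and securin for destruction, which lets the chromosomes part and the cell divide. In the colon, dividing cells lie mainly in the lower part of the crypts, where stem cells and their progeny renew the epithelium, and mitosis genes are commonly read as a sign of how many cells in a tissue are dividing.

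The samples were distal colons of 8 C57BL/6 mice, 8 to 10 weeks old, in 4 groups of 2. Wild-type (WT) mice and mice named NAIL-ΔNFκB, called ΔNFκB here, were either untreated or given dextran sulfate sodium (DSS), a sulfated polysaccharide that injures the colon lining. DSS was given at 3% for 4 days, and normal water followed for 4 days. NAIL is a long noncoding RNA locus, all mice of the second line carry its altered form, and the labels leave the altered bases unnamed. Gm16685, which general knowledge gives as the NAIL gene of the mouse, had 3 and 20 counts in untreated WT mice, 57 and 126 in WT mice after DSS, 3 and 4 in untreated ΔNFκB mice, and 55 and 86 in ΔNFκB mice after DSS. A gene count cannot tell whether bases of the locus are missing.

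Total counts ran from 9229861 to 16935961 per library, and Pearson r of log2(CPM + 1) between both mice of a group was 0.982 to 0.988 over genes, which are not independent replicates. CPM, a normalised read count, scales each library to a common total. Y-linked transcripts showed that both untreated ΔNFκB mice and untreated WT replicate 2 were male, at 233 to 248 CPM, and that the other 5 were female, at no more than 0.183 CPM. DSS and sex therefore cannot be told apart in ΔNFκB mice and can only partly be told apart in WT mice, whereas the comparison of genotypes after DSS was among females. Sex was also unbalanced in the comparison of untreated genotypes and in the difference of the DSS effects. Transcripts resembling ribosomal RNA took 0.686% to 1.83% of counts in untreated libraries and 3.46% to 6.69% after DSS. The labels do not state litters or cages, so p-values measure the spread between these mice only.

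Stretches of 7 promoters are shown to set genes from several roles side by side, with and without the 2 short motifs counted over all promoters in the next paragraph. In each, the printed 120 bases lie directly before the annotated gene start, whichever of the RefSeq and GENCODE starts was further upstream, and are written 5′ to 3′ on the strand of the gene (RefSeq sequence, build GRCm38.p6). Capitals mark TTTGAA, or TTCAAA where it lies on the other strand, and CCAAT, or ATTGG on the other strand.
Cdk1: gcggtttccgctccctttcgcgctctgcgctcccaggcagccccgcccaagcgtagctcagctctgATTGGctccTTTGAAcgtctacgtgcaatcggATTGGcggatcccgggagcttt
Cdc20: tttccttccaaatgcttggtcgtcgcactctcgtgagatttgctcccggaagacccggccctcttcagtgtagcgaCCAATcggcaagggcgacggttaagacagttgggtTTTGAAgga
Top2a: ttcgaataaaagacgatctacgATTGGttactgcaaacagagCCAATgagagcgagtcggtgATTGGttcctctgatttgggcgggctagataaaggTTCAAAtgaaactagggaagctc
Mki67: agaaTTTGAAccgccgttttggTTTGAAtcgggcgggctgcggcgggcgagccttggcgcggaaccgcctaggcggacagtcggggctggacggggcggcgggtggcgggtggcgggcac
Kif11: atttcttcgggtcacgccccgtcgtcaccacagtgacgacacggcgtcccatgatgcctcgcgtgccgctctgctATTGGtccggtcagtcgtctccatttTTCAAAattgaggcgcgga
Plk1: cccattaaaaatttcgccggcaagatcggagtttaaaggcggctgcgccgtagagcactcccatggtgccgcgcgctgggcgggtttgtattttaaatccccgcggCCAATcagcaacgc
Mad2l1: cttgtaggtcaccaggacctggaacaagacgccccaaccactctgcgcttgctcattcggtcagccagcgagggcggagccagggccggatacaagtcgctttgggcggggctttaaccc
These lie at chr10:69352939-69353058 (minus strand), chr4:118437353-118437472 (minus), chr11:99024190-99024309 (minus), chr7:135716380-135716499 (minus), chr19:37376262-37376381 (plus), chr7:122159315-122159434 (plus) and chr6:66535101-66535220 (plus). The Cdk1, Cdc20, Kif11 and Top2a stretches hold both motifs, with 3 matches of CCAAT in Top2a. The Mki67 stretch holds 2 of TTTGAA and none of CCAAT, that of Plk1 holds CCAAT alone, and that of Mad2l1 holds neither. In the longer windows of the next paragraph, Mki67 also holds CCAAT and Plk1 also holds TTTGAA, so both count there as holding both motifs.

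Windows from 250 bases before to 50 bases after the RefSeq start were at hand for 42 of the 53 genes, 44 windows in all. TTTGAA, the core of the element known as the cell cycle homology region, occurred on either strand in 31 of 42 (73.8%), against 20.2% of all 27025 genes with a window. CCAAT, searched on both strands, occurred in 31 of 42 (73.8%), against 41.1%, and both motifs together in 26 (61.9%), against 7.97%. The third motif searched, GGCGG on either strand, occurred in 37 (88.1%), against 51.2%. A TTTGAA match can share at most 1 base with a CCAAT match, and CCAAT and GGCGG matches can share 2. A match describes letters, not a bound site. The 27025 genes were not limited to those tested here, whereas all 42 were tested, so expressed and unexpressed genes are mixed in the shares beside them. The 11 genes with no TTTGAA in their window were Birc5, Bub1, Ccnb1, Cdc25b, Cenpe, Mad2l1, Ncaph, Nek2, Nuf2, Nusap1 and Pttg1. Their median difference between the DSS effects of the genotypes was 1.66 on the log2 scale (0.49 to 2.07), and that of the 31 genes with a match was 1.64 (1.07 to 2.06).

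Taken by their summed level, the 53 genes were lowest in untreated ΔNFκB mice and highest in ΔNFκB mice after DSS. The sums were 2700 and 2784 CPM in untreated WT mice, 2071 and 1906 in WT mice after DSS, 1354 and 1540 in untreated ΔNFκB mice, and 2976 and 3297 in ΔNFκB mice after DSS. No 2 groups overlapped in this sum: DSS went with a lower sum in WT mice and with a higher one in ΔNFκB mice. In these bulk samples, fewer dividing cells and less of these RNAs per cell cannot be told apart. By group mean, 49 of the 53 genes were lowest in untreated ΔNFκB mice and 4 in WT mice after DSS, while 37 were highest in ΔNFκB mice after DSS and 16 in untreated WT mice.

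**Figure D1:**
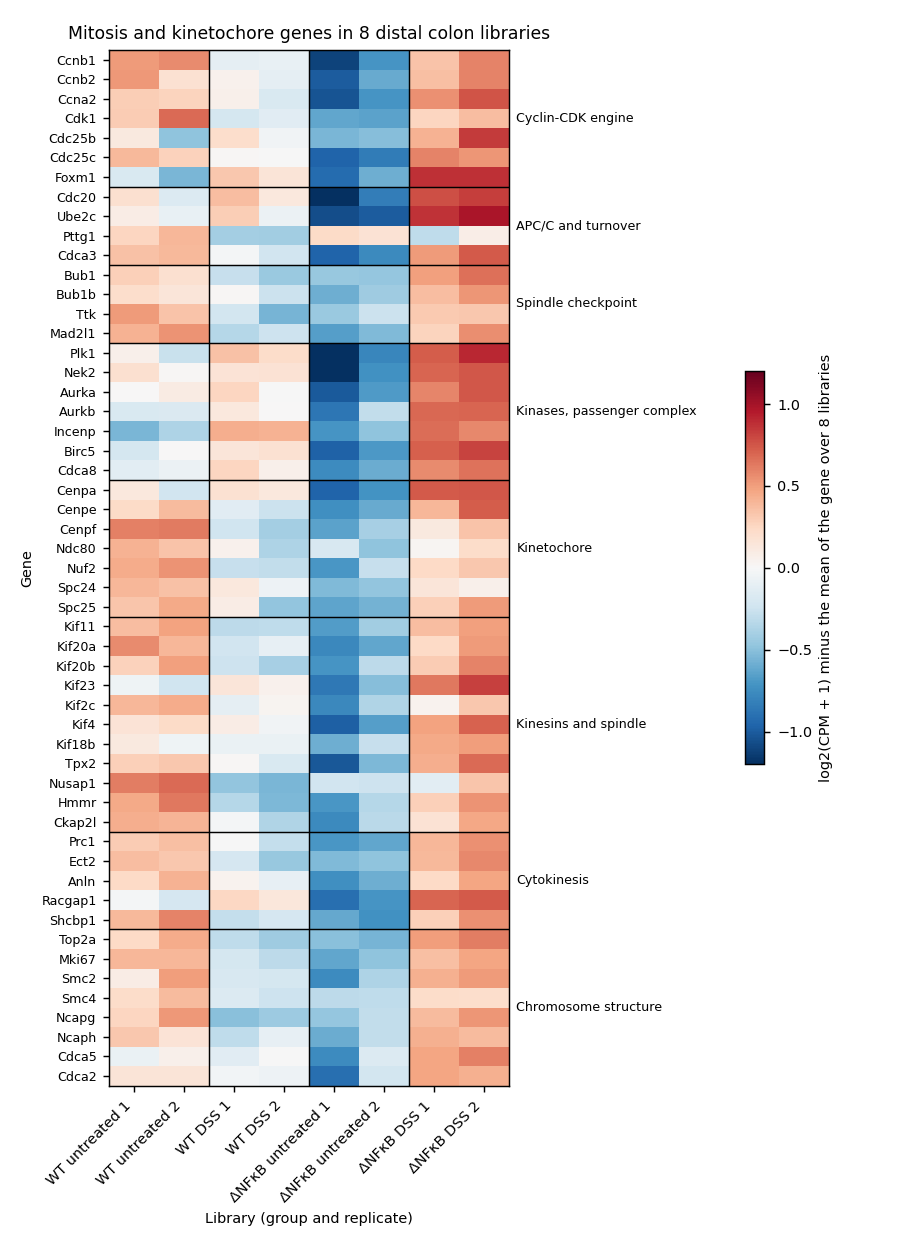
Level of each of the 53 genes (rows, grouped by role) in each of the 8 libraries (columns), as log2(CPM + 1) minus the mean of that gene over the 8 libraries. The untreated ΔNFκB columns are the lowest for most genes and the ΔNFκB columns after DSS the highest for most; 49 genes had their lowest group mean in untreated ΔNFκB mice.

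Per kilobase of exon, Mki67 ranked first of the 53 in all 4 groups. The mean level of Mki67, which encodes the Ki-67 protein that coats mitotic chromosomes, was 57.0 CPM per kilobase in untreated WT mice, 36 in WT mice after DSS, 29.4 in untreated ΔNFκB mice and 57.9 in ΔNFκB mice after DSS. The median over the 53 genes was 6.78, 5.5, 3.73 and 8.11 CPM per kilobase in the same order of groups. The lowest of the genes stood at 1.87, 1.44, 0.676 and 1.94.

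In WT mice, DSS went with lower levels of many mitosis genes and higher levels of few. Of the 53 genes, 24 fell, 2 rose and 27 did not pass the test, beside 36% of all 17522 genes that passed it in either direction (17.2% higher and 18.8% lower; edgeR's quasi-likelihood test, Benjamini-Hochberg adjusted p under 0.05). The median log2 fold change of the 53 was -0.48, with a range of -1.21 to 0.91, against a median of 0.00 over all genes. The genes that fell included Cdk1, Ccnb1, Mki67, Top2a, the kinetochore gene Cenpf and the motor Kif11, and those that rose were Foxm1 and Incenp. WT libraries of the 2 conditions did not overlap for 38 genes in the lower direction and 8 in the higher, beside 35.4% and 36% of all genes. The number that passed fell to 14 when untreated WT replicate 2 was left out, to 17 when WT DSS replicate 1 was, to 13 when WT DSS replicate 2 was, and to 16 with a term for sex. Called with each of the 8 libraries left out in turn were 10 genes: Mad2l1, Incenp, Cenpf, Kif11, Nusap1, Hmmr, Ect2, Top2a, Mki67 and Ncapg.

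In ΔNFκB mice, nearly all mitosis genes rose with DSS. Of the 53 genes, 50 rose, 0 fell and 3 did not pass the test, beside 35.4% of all genes that passed in either direction and 16.2% that rose (edgeR's quasi-likelihood test). The median log2 fold change was 1.10, a 2.14-fold rise, against -0.04 over all genes. The largest was that of Ube2c, the ubiquitin-conjugating enzyme of the anaphase-promoting complex, at 2.04 ± 0.16 (adjusted p 0.000173). The libraries of both conditions did not overlap for 52 genes in the higher direction and for 1, Pttg1, in the lower, beside 33.8% and 37.9% of all genes. With each library left out in turn 44 to 50 of the genes passed, and with a term for sex 38 did. Here the untreated mice were males and the DSS mice females, and the sex term was estimated from untreated WT mice alone.

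The response to DSS differed between the genotypes for 49 of the 53 genes, all with a more positive effect in ΔNFκB mice, beside 17.7% of all genes in either direction with 8.63% in this direction and 9.07% in the other (edgeR's quasi-likelihood test of the interaction). The median difference of the log2 fold changes was 1.64, against -0.05 over all genes, and all 53 differences were positive, from 0.34 to 2.08. This difference is also the genotype difference after DSS (median 0.62) minus that without DSS (median -0.95). The rise in ΔNFκB mice, the genotype difference without DSS and this difference all use the same 2 untreated ΔNFκB mice, both male. They are therefore not separate results. Of the 53, 22 fell in WT mice and rose in ΔNFκB mice, 26 rose in ΔNFκB mice without passing in WT mice, and 2 rose in both. Over all genes 18.8% fell in WT mice and 16.2% rose in ΔNFκB mice, and the joint share was not counted. The WT part of these counts depended on single libraries and on the sex term, as given above. The 4 genes whose difference did not pass were Cdc25b, Pttg1, Incenp and Cdca5 (the last 2 named after their values were seen). With each library left out in turn 35 to 48 of the genes passed, 35 of them in all 8 fits. The lowest number came without ΔNFκB DSS replicate 2.

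**Figure D2:**
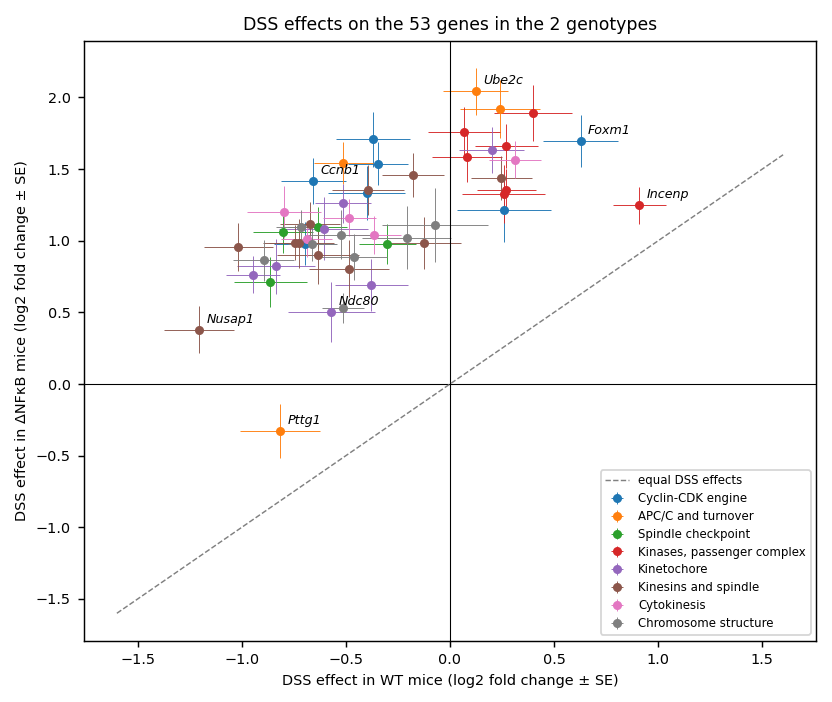
DSS effect on each of the 53 genes in WT mice (horizontal) and in ΔNFκB mice (vertical), as log2 fold change, with bars for ± SE, colours for roles and a dashed line where both effects would be equal. All 53 points lie above the dashed line, 39 of them left of the vertical zero line, and 1, Pttg1, lies below the horizontal zero line.

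Without DSS, mitosis genes were lower in ΔNFκB than in WT mice. Of the 53, 20 passed the test as lower and 0 as higher, beside 0.388% of all genes that passed in either direction, 0.348% that were lower and 0.0399% that were higher (edgeR's quasi-likelihood test). Those 20 made up 32.8% of the 61 genes called lower in this comparison, a description only, since the 53 were chosen with earlier results of these data known. The 20 were Anln, Ccna2, Ccnb1, Ccnb2, Cdc25c, Cdca3, Cdk1, Cenpe, Cenpf, Ect2, Hmmr, Kif11, Kif20a, Kif4, Mad2l1, Mki67, Prc1, Shcbp1, Top2a and Ube2c (Anln, Ccnb2 and Kif4 named after their values were seen). The median log2 difference was -0.95 against 0.03 over all genes, all 53 were negative, and the libraries did not overlap for 52, beside 22.7% of all genes. Incenp was the exception. These calls turned on single libraries: 21 genes passed without untreated WT replicate 1, which leaves males only, 7 without untreated ΔNFκB replicate 2, and 0 without any 1 of the other 6 libraries. In those 6 fits the adjusted p of every one of the 53 missed the threshold, while 46 to 49 had an unadjusted p under 0.05 and all 53 remained negative, and the medians over the 8 fits were -0.87 to -1.11. DESeq2 called 38, no filter on low counts gave 42 and a fit of the 2 groups alone gave 0, with 46 at an unadjusted p under 0.05.

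After DSS, mitosis genes were higher in ΔNFκB than in WT mice, all 4 mice being female. Of the 53, 35 passed the test as higher and 0 as lower, beside 20% of all genes in either direction and 8.32% that were higher (edgeR's quasi-likelihood test). The median log2 difference was 0.62 against 0.03 over all genes, and all 53 were positive. The libraries did not overlap for 51 genes, beside 35.5% of all genes; Spc24 and Ndc80, named after their values were seen, overlapped. Here too single libraries decided the count, which was 15 without WT DSS replicate 1, 5 without WT DSS replicate 2, 18 without ΔNFκB DSS replicate 1 and 1 without ΔNFκB DSS replicate 2. Top2a was called in all 8 of these fits. Both genotype differences, lower without DSS and higher after it, passed for 18 genes. Over all genes this was not counted, but it cannot exceed the 0.348% that were lower without DSS. The 18 rest on calls of both comparisons that turned on single libraries.

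**Figure D3:**
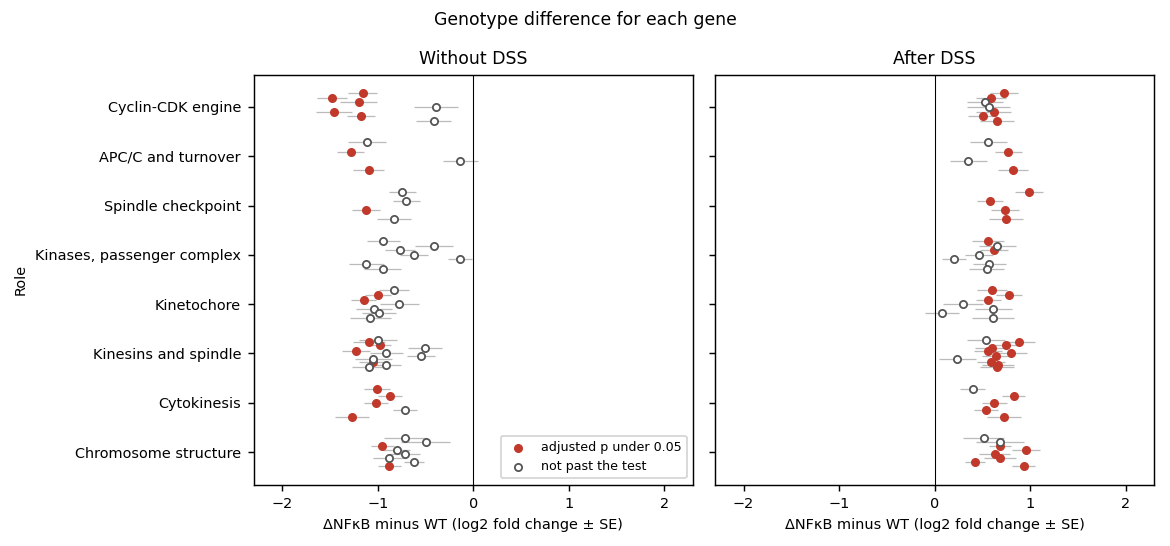
ΔNFκB minus WT log2 fold change ± SE of each of the 53 genes, grouped by role, without DSS (left) and after DSS (right), with red points where the adjusted p was under 0.05. All 53 points lie left of zero without DSS, 20 of them red, and right of zero after DSS, 35 of them red.

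For the cyclins and the kinase that start mitosis, with their regulators, the DSS effects differed by 0.96 to 2.08. The median was 1.73, beside 1.64 over the 53 genes. Of 7 genes in this group, 1 rose and 2 fell with DSS in WT mice, and all 7 rose in ΔNFκB mice, with medians of -0.37 and 1.42. The counts of this and the following roles stand beside 17.2% of all genes that rose and 18.8% that fell in WT mice. In ΔNFκB mice those shares were 16.2% and 19.2%, and the difference passed for 17.7% of all genes. Ccnb1, cyclin B1, the activator of Cdk1, stood at 52.4 and 54.7 CPM in untreated WT mice, 33.7 and 34.2 in WT mice after DSS, 16.4 and 22 in untreated ΔNFκB mice and 46.5 and 55.9 in ΔNFκB mice after DSS. Untreated ΔNFκB mice were the lowest of the 4 groups, both WT mice after DSS lay between, and ΔNFκB mice after DSS were close to untreated WT mice. The DSS effect on Ccnb1 was -0.66 ± 0.16 on the log2 scale in WT mice (adjusted p 0.0138) against 1.42 ± 0.16 in ΔNFκB mice (adjusted p 0.00058), a difference of 2.07 ± 0.22 (adjusted p 0.00473; edgeR's quasi-likelihood test throughout the results by role). Its WT call ended without untreated WT replicate 2 (adjusted p 0.0619), WT DSS replicate 1 (0.0709) or WT DSS replicate 2 (0.0685), and with a sex term (0.0508).

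Cdk1, the kinase that drives mitotic entry, stood at 36.9 and 47.9 CPM in untreated WT mice, 25.4 and 26.9 in WT mice after DSS, 18.9 and 18.6 in untreated ΔNFκB mice and 35.5 and 38.5 in ΔNFκB mice after DSS. Both ΔNFκB untreated mice were below the other 6, and no groups of 1 genotype overlapped. The DSS effect was -0.70 ± 0.15 in WT mice (adjusted p 0.0086) and 0.98 ± 0.15 in ΔNFκB mice (adjusted p 0.002), which differed by 1.68 ± 0.21 (adjusted p 0.00622). Without untreated WT replicate 2 the WT value was -0.46 and the call ended (adjusted p 0.0517), as it did without WT DSS replicate 1 (0.0554). Ccna2, cyclin A2, which acts in S phase and G2, was at 101 and 99.3 CPM in untreated WT mice, 85.5 and 72 in WT mice after DSS, 39.5 and 50 in untreated ΔNFκB mice and 120.3 and 139.5 in ΔNFκB mice after DSS. It was highest in ΔNFκB mice after DSS, above all 6 other libraries, and rose there by 1.54 ± 0.15 (adjusted p 0.000343), against -0.35 ± 0.15 in WT mice (adjusted p 0.0963). About 12.5% of its exon bases lie in Exosc9 on the opposite strand, so its count is uncertain.

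Of the phosphatases that switch Cdk1 on, Cdc25c passed for the difference of the DSS effects and Cdc25b did not. Both rose in ΔNFκB mice, and no test compared the genes with each other. Cdc25c was at 9.58 and 8.79 CPM in untreated WT mice, 7.15 and 7.05 in WT mice after DSS, 3.15 and 3.5 in untreated ΔNFκB mice and 11.2 and 10.6 in ΔNFκB mice after DSS, with a rise of 1.71 ± 0.19 in ΔNFκB mice (adjusted p 0.000543), and the DSS effects differed by 2.08 ± 0.26 (adjusted p 0.00622). Gm3550 on the opposite strand covers 12.7% of the exon bases of Cdc25c. For Cdc25b, at 30.8 and 19.9 CPM in untreated WT mice, 33 and 27.6 in WT mice after DSS, 19 and 19.5 in untreated ΔNFκB mice and 38.2 and 51.4 in ΔNFκB mice after DSS, the untreated WT replicates were themselves apart. Cdc25b rose by 1.22 ± 0.23 in ΔNFκB mice (adjusted p 0.00479), a call that ended with a sex term (0.59, adjusted p 0.206), and its difference of 0.96 ± 0.32 did not pass (adjusted p 0.073). Foxm1, a transcription factor of G2 and M phase genes, went the other way from most of its group in WT mice. It stood at 19.4 and 14.9 CPM in untreated WT mice, 28.1 and 24.8 in WT mice after DSS, 11.2 and 14.5 in untreated ΔNFκB mice and 41.6 and 41.6 in ΔNFκB mice after DSS, and both DSS groups lay above both untreated ones. The effect was 0.63 ± 0.18 in WT mice (adjusted p 0.0273) and 1.70 ± 0.18 in ΔNFκB mice (adjusted p 0.000492). The difference of 1.07 ± 0.25 passed (adjusted p 0.0279), but ended without WT DSS replicate 1 (0.0536), WT DSS replicate 2 (0.0935), untreated ΔNFκB replicate 1 (0.0862), ΔNFκB DSS replicate 1 (0.0678) or ΔNFκB DSS replicate 2 (0.0965). Its WT call ended with a sex term (0.129) and without untreated WT replicate 2 (0.105), WT DSS replicate 1 (0.135), WT DSS replicate 2 (0.0642) or ΔNFκB DSS replicate 1 (0.051).

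**Figure D4:**
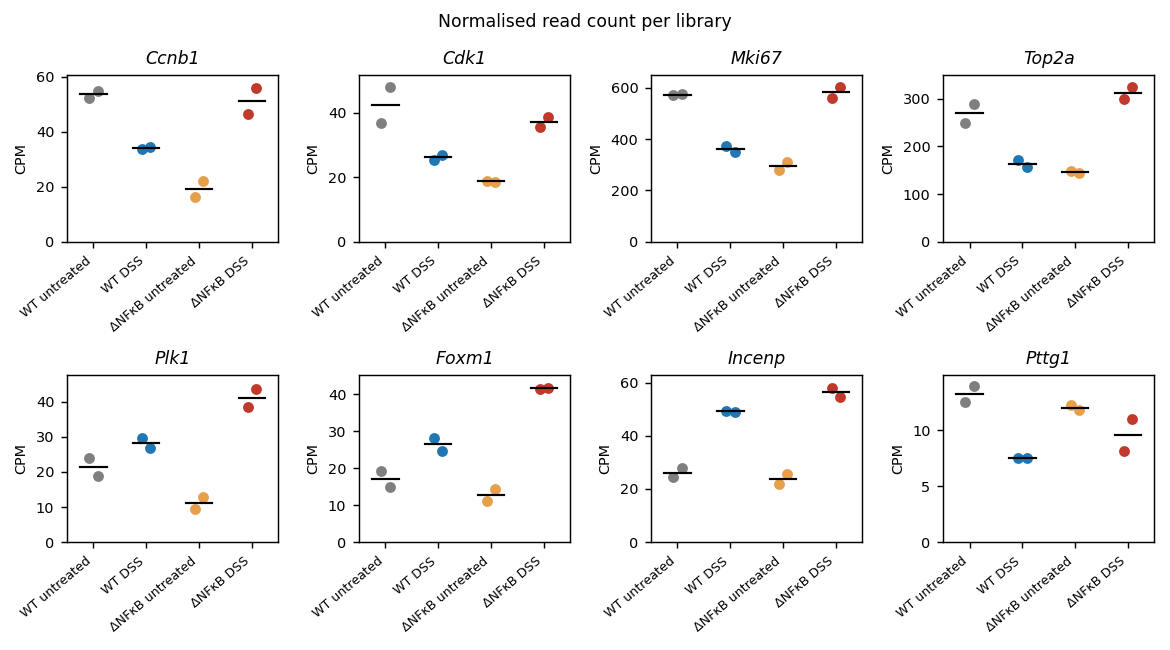
CPM of 8 of the genes in each library (points) with the group mean (bar), in untreated and DSS-treated WT and ΔNFκB mice. Ccnb1, Cdk1, Mki67 and Top2a are lower after DSS in WT mice and higher in ΔNFκB mice, Foxm1 and Incenp are higher after DSS in both, Plk1 rises mainly in ΔNFκB mice, and Pttg1 is lower after DSS in WT mice.

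Among the 4 genes around the anaphase-promoting complex, 3 rose in ΔNFκB mice and 1, Pttg1, did not. Cdc20, the activator of the complex, was at 29.7 and 23 CPM in untreated WT mice, 33.8 and 28.4 in WT mice after DSS, 10.1 and 14.2 in untreated ΔNFκB mice and 45 and 46.8 in ΔNFκB mice after DSS. ΔNFκB mice after DSS were above the other 6, and Cdc20 rose there by 1.92 ± 0.20 (adjusted p 0.000441) against 0.24 ± 0.19 in WT mice (adjusted p 0.351). Ube2c stood at 25.3 and 22.3 CPM in untreated WT mice, 29.4 and 22.5 in WT mice after DSS, 10.9 and 11.4 in untreated ΔNFκB mice and 44.1 and 47.7 in ΔNFκB mice after DSS, with the same order of groups; WT mice overlapped between conditions. Its DSS effect in WT mice was 0.12 ± 0.16 (adjusted p 0.561), and the effects differed by 1.92 ± 0.23 (adjusted p 0.00536). Tnnc2 on the opposite strand covers 22.8% of the exon bases of Ube2c. Cdca3, a trigger of mitotic entry, was at 35.9 and 37 CPM in untreated WT mice, 27.4 and 23.7 in WT mice after DSS, 13.9 and 16 in untreated ΔNFκB mice and 40.2 and 47.1 in ΔNFκB mice after DSS, and the DSS effects differed by 2.06 ± 0.20 (adjusted p 0.00421). Its WT fall of -0.51 ± 0.14 (adjusted p 0.0243) ended by DESeq2 (0.063), with a sex term (0.0773) and without untreated WT replicate 1 (0.0571), untreated WT replicate 2 (0.088) or WT DSS replicate 2 (0.141). The difference for Cdc20, 1.68 ± 0.28 (adjusted p 0.0103), missed the threshold without ΔNFκB DSS replicate 2 (0.0509).

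Pttg1, securin, which holds back the separase enzyme until anaphase, was the one gene of the 53 whose ΔNFκB value after DSS was below that of untreated mice. It stood at 12.5 and 14 CPM in untreated WT mice, 7.53 and 7.51 in WT mice after DSS, 12.3 and 11.8 in untreated ΔNFκB mice and 8.2 and 11 in ΔNFκB mice after DSS. The untreated libraries of both genotypes lay above all 4 DSS libraries. Pttg1 fell in WT mice with -0.82 ± 0.19 (adjusted p 0.0128), while -0.33 ± 0.19 in ΔNFκB mice (adjusted p 0.214) and the difference of 0.49 ± 0.27 (adjusted p 0.228) did not pass. The WT call ended without untreated WT replicate 2 (0.0638), WT DSS replicate 1 (0.0639) or WT DSS replicate 2 (0.0672), and with a sex term (0.0555).

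The 4 spindle checkpoint genes all rose in ΔNFκB mice, and 3 of them fell in WT mice; the medians were 1.02 and -0.72. Bub1, a checkpoint kinase at the kinetochore, stood at 24.2 and 22.6 CPM in untreated WT mice, 16 and 14.1 in WT mice after DSS, 14 and 13.9 in untreated ΔNFκB mice and 28.1 and 31.6 in ΔNFκB mice after DSS. WT mice after DSS and untreated ΔNFκB mice were both low, within 13.9 to 16 CPM, and the other 4 libraries lay above 22 CPM. The DSS effects were -0.63 ± 0.14 in WT mice (adjusted p 0.0105; 0.0698 without WT DSS replicate 2) and 1.09 ± 0.14 in ΔNFκB mice (adjusted p 0.000982). Mad2l1, which encodes the checkpoint protein that binds Cdc20, was at 34.6 and 37.8 CPM in untreated WT mice, 20.1 and 21.4 in WT mice after DSS, 15.9 and 17.4 in untreated ΔNFκB mice and 31 and 38.2 in ΔNFκB mice after DSS, and its DSS effects differed by 1.86 ± 0.21 (adjusted p 0.00473). Bub1b, the BubR1 pseudokinase, was at 39.1 and 37.4 CPM in untreated WT mice, 34 and 28.1 in WT mice after DSS, 22.2 and 24.9 in untreated ΔNFκB mice and 43.8 and 49 in ΔNFκB mice after DSS. It did not pass in WT mice, at -0.30 ± 0.14 (adjusted p 0.119), and rose by 0.98 ± 0.14 in ΔNFκB mice (adjusted p 0.00143).

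The mitotic kinases and the chromosomal passenger complex, which corrects faulty attachments, formed the role group with the highest median DSS effect in WT mice. None of its 7 genes fell there, 1 rose and 6 did not pass, with a median of 0.27, and all 7 rose in ΔNFκB mice, with a median of 1.59. Plk1, polo-like kinase 1, was at 24 and 18.8 CPM in untreated WT mice, 29.5 and 26.8 in WT mice after DSS, 9.31 and 12.9 in untreated ΔNFκB mice and 38.5 and 43.7 in ΔNFκB mice after DSS. ΔNFκB mice after DSS were above the other 6, and untreated ΔNFκB mice were lowest. Its effects were 0.40 ± 0.19 in WT mice (adjusted p 0.128) and 1.89 ± 0.20 in ΔNFκB mice (adjusted p 0.000417). The difference of 1.49 ± 0.27 (adjusted p 0.013) missed the threshold without WT DSS replicate 2 (0.0518) or ΔNFκB DSS replicate 2 (0.0616). Nek2, a kinase of the centrosome, was at 32.6 and 28.7 CPM in untreated WT mice, 32 and 32.2 in WT mice after DSS, 11.4 and 16.8 in untreated ΔNFκB mice and 46.8 and 48.4 in ΔNFκB mice after DSS, and Aurka, Aurora kinase A of the spindle poles, at 19.9 and 21.3 CPM in untreated WT mice, 23.9 and 19.8 in WT mice after DSS, 9.38 and 12 in untreated ΔNFκB mice and 30.3 and 34 in ΔNFκB mice after DSS. Both were nearly level between WT conditions, at 0.07 ± 0.17 (adjusted p 0.781) and 0.08 ± 0.17 (adjusted p 0.721), and rose in ΔNFκB mice by 1.76 ± 0.18 and 1.59 ± 0.17 (adjusted p 0.000417 and 0.000525).

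Birc5, survivin, a subunit of the passenger complex, stood at 18.8 and 22 CPM in untreated WT mice, 24.3 and 25 in WT mice after DSS, 10.7 and 13.3 in untreated ΔNFκB mice and 36.8 and 39.2 in ΔNFκB mice after DSS. It rose by 1.66 ± 0.15 in ΔNFκB mice (adjusted p 0.000289), and the effects differed by 1.39 ± 0.21 (adjusted p 0.00895). Incenp, the scaffold of the same complex, named after its values were seen, behaved unlike most of the 53. It was at 24.4 and 27.8 CPM in untreated WT mice, 49.4 and 48.8 in WT mice after DSS, 21.8 and 25.6 in untreated ΔNFκB mice and 58.1 and 54.6 in ΔNFκB mice after DSS, so that both DSS groups were near or above 49 CPM and both untreated groups below 28 CPM. The rise was 0.91 ± 0.13 in WT mice (adjusted p 0.00159) and 1.25 ± 0.13 in ΔNFκB mice (adjusted p 0.000417). The difference of 0.34 ± 0.18 did not pass (adjusted p 0.214), which does not show that the effects are equal.

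Of 7 kinetochore and centromere genes, 3 fell in WT mice, beside 18.8% of all genes, and 6 rose in ΔNFκB mice, beside 16.2%. The medians were -0.57 and 0.82. Cenpf, a large kinetochore protein, was at 117 and 119 CPM in untreated WT mice, 64.9 and 57.5 in WT mice after DSS, 48.6 and 57.8 in untreated ΔNFκB mice and 83.3 and 97.3 in ΔNFκB mice after DSS. Untreated WT mice were above all 6 other libraries, and ΔNFκB mice after DSS remained below them. Its fall in WT mice was -0.95 ± 0.13 (adjusted p 0.00151) and its rise in ΔNFκB mice 0.76 ± 0.13 (adjusted p 0.00318). Cenpe, a kinetochore motor, stood at 75.9 and 84.6 CPM in untreated WT mice, 58.6 and 53.8 in WT mice after DSS, 38.5 and 42.1 in untreated ΔNFκB mice and 85.6 and 107 in ΔNFκB mice after DSS, with a difference of 1.78 ± 0.19 (adjusted p 0.00473). Its WT fall of -0.51 ± 0.14 (adjusted p 0.0201) ended with a sex term (0.0848) and without untreated WT replicate 2 (0.099), WT DSS replicate 1 (0.0627) or WT DSS replicate 2 (0.118). Cenpa, the centromere-specific histone H3, was at 30.3 and 23.3 CPM in untreated WT mice, 31.4 and 30.1 in WT mice after DSS, 13.6 and 16.4 in untreated ΔNFκB mice and 46.5 and 46.9 in ΔNFκB mice after DSS, higher after DSS than in all other libraries in ΔNFκB mice, with an effect of 1.63 ± 0.16 (adjusted p 0.000362) against 0.20 ± 0.16 in WT mice (adjusted p 0.341). Ndc80, named after its values were seen, which encodes the microtubule-binding core, passed in neither genotype, at -0.57 ± 0.21 and 0.50 ± 0.21 (adjusted p 0.0619 and 0.0967), while their difference of 1.07 ± 0.30 passed (adjusted p 0.0415), and the difference passed in 1 of the 8 fits with a library left out.

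Of the 11 spindle motors and spindle factors, 6 fell in WT mice and 10 rose in ΔNFκB mice, with medians of -0.63 and 0.98, and the difference passed for all 11. Kif11, the motor that separates the spindle poles, was at 79 and 85.3 CPM in untreated WT mice, 48.8 and 49.2 in WT mice after DSS, 37.8 and 45.5 in untreated ΔNFκB mice and 78.8 and 86.1 in ΔNFκB mice after DSS. WT mice after DSS and untreated ΔNFκB mice were both below the other 4 libraries. The effects were -0.75 ± 0.12 (adjusted p 0.00283) in WT and 0.99 ± 0.12 (adjusted p 0.000826) in ΔNFκB mice. Hmmr, a spindle-associated protein also known as RHAMM, was at 43.8 and 49.8 CPM in untreated WT mice, 24.8 and 21.5 in WT mice after DSS, 19.2 and 24.8 in untreated ΔNFκB mice and 38.9 and 46.4 in ΔNFκB mice after DSS, and its difference was 1.97 ± 0.24 (adjusted p 0.00567). Kif20a, a kinesin of the central spindle, was at 40.3 and 35.7 CPM in untreated WT mice, 22.8 and 24.9 in WT mice after DSS, 15.3 and 17.1 in untreated ΔNFκB mice and 31.8 and 38.6 in ΔNFκB mice after DSS, with a difference of 1.79 ± 0.21 (adjusted p 0.00536); 29.3% of its exon bases lie in Cdc23 on the other strand, and its WT call ended without WT DSS replicate 1 (0.0613).

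Kif23, the kinesin of the centralspindlin complex, was the one gene of these 11 with a positive value in WT mice. It stood at 41.4 and 36.4 CPM in untreated WT mice, 47.7 and 44.5 in WT mice after DSS, 23.3 and 29.9 in untreated ΔNFκB mice and 67.1 and 76.8 in ΔNFκB mice after DSS, and ΔNFκB mice after DSS were above the other 6. The WT value of 0.25 ± 0.15 did not pass (adjusted p 0.22), and the rise in ΔNFκB mice was 1.44 ± 0.15 (adjusted p 0.000448). The difference of 1.19 ± 0.21 (adjusted p 0.0128) missed the threshold without WT DSS replicate 2 (0.0519) or ΔNFκB DSS replicate 2 (0.0612). Nusap1, a microtubule-bundling protein named after its values were seen, had the largest fall of the 53 in WT mice, -1.21 ± 0.17 (adjusted p 0.00152), from 40.4 and 42.5 to 18.4 and 17.5 CPM. In ΔNFκB mice it was at 22.1 and 21.7 CPM without DSS and 23.8 and 33.2 after it, which did not pass at 0.38 ± 0.17 (adjusted p 0.109).

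All 5 cytokinesis genes rose in ΔNFκB mice, 3 fell in WT mice, and the medians were 1.16 and -0.48. Ect2, the exchange factor that starts the cleavage furrow, was at 69.1 and 66.9 CPM in untreated WT mice, 46 and 38.5 in WT mice after DSS, 36.5 and 37.8 in untreated ΔNFκB mice and 70.1 and 79.6 in ΔNFκB mice after DSS. Its effects were -0.69 ± 0.12 in WT mice (adjusted p 0.00432) and 1.01 ± 0.12 in ΔNFκB mice (adjusted p 0.000808), and both groups that were low lay below 47 CPM. Prc1, which bundles the central spindle, was at 55.5 and 57.7 CPM in untreated WT mice, 44.4 and 36.5 in WT mice after DSS, 27.2 and 28.6 in untreated ΔNFκB mice and 59.2 and 65.6 in ΔNFκB mice after DSS, with a difference of 1.64 ± 0.18 (adjusted p 0.00473) and 11.1% of exon bases shared with Rccd1 on the other strand. Its WT fall of -0.48 ± 0.13 (adjusted p 0.0196) ended with a sex term (0.0684) and without untreated WT replicate 2 (0.0774) or WT DSS replicate 2 (0.13). Shcbp1, a midbody protein, was at 14.8 and 17.3 CPM in untreated WT mice, 8.98 and 9.52 in WT mice after DSS, 6.94 and 6.35 in untreated ΔNFκB mice and 13.8 and 16.8 in ΔNFκB mice after DSS, with a difference of 2.00 ± 0.25 (adjusted p 0.00622). The WT fall of Shcbp1, -0.80 ± 0.18 (adjusted p 0.0103), ended with a sex term (0.0506) and without untreated WT replicate 2 (0.0615) or WT DSS replicate 1 (0.062). Racgap1, the partner of Kif23 in centralspindlin, had a positive value in WT mice as Kif23 did. At 35.4 and 31.1 CPM in untreated WT mice, 42.9 and 39.6 in WT mice after DSS, 18.8 and 21.6 in untreated ΔNFκB mice and 59 and 60.6 in ΔNFκB mice after DSS, its effects were 0.31 ± 0.13 (adjusted p 0.0845) and 1.57 ± 0.13 (adjusted p 0.000186).

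The 8 genes of chromosome structure shape and untangle the chromosomes before they part. All 8 rose in ΔNFκB mice and 5 fell in WT mice, with medians of 1 and -0.52. Mki67 stood at 572 and 575 CPM in untreated WT mice, 374 and 351 in WT mice after DSS, 281 and 311 in untreated ΔNFκB mice and 560.4 and 604 in ΔNFκB mice after DSS. The groups formed a clear order: untreated WT mice and ΔNFκB mice after DSS were high and overlapped, WT mice after DSS were lower, and untreated ΔNFκB mice were lowest. Its effects were -0.66 ± 0.12 (adjusted p 0.0042) and 0.98 ± 0.12 (adjusted p 0.000763), which differed by 1.64 ± 0.17 (adjusted p 0.00421).

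Top2a, the topoisomerase that untangles sister chromatids, was at 249 and 289 CPM in untreated WT mice, 171 and 157 in WT mice after DSS, 149 and 143 in untreated ΔNFκB mice and 300.0 and 325 in ΔNFκB mice after DSS. ΔNFκB mice after DSS were above the other 6 libraries. Its difference between the DSS effects, 1.81 ± 0.17 (adjusted p 0.00361), had the smallest adjusted p among the 53, and the effects themselves were -0.72 ± 0.12 (adjusted p 0.00318) and 1.10 ± 0.12 (adjusted p 0.000522). Ncapg, a condensin subunit, was at 33 and 39.8 CPM in untreated WT mice, 19.1 and 20.1 in WT mice after DSS, 19.6 and 22.2 in untreated ΔNFκB mice and 35.9 and 40.1 in ΔNFκB mice after DSS, and fell in WT mice with -0.89 ± 0.15 (adjusted p 0.00286) and rose in ΔNFκB mice by 0.86 ± 0.14 (adjusted p 0.00293); 13.4% of its exon bases lie in Lcorl on the other strand. In all, 16 of the 53 genes share exon bases with another gene, 7 of them over 10%, and the strand setting of the counting is not given in the sources used here.

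Further lists of mitosis and cell cycle genes were examined beside the 53. Of all genes, 17.2% rose and 18.8% fell in WT mice, and 16.2% rose and 19.2% fell in ΔNFκB mice. The difference passed for 17.7% of all genes, 8.63% of them with a more positive effect in ΔNFκB mice. Among 35 other motors and spindle genes, 30 rose in ΔNFκB mice, 0 fell, and 3 rose and 11 fell in WT mice; the difference passed for 25, with a median of 1.30. Aspm, a spindle pole protein, had effects of -1.19 ± 0.16 in WT mice and 0.53 ± 0.16 in ΔNFκB mice (adjusted p 0.00117 and 0.0303), and Melk, a mitotic kinase, -0.68 ± 0.14 and 1.06 ± 0.14 (adjusted p 0.0078 and 0.00115). The ΔNFκB rise of Aspm missed the threshold with a sex term (0.271) and without untreated ΔNFκB replicate 1 (0.128) or ΔNFκB DSS replicate 1 (0.0603) or 2 (0.147), and the WT fall of Melk did without WT DSS replicate 2 (0.0574). Of 21 outer kinetochore and checkpoint genes, 15 rose in ΔNFκB mice, 0 fell, and 1 rose and 5 fell in WT mice. Knl1, a scaffold for the checkpoint proteins, had -0.82 ± 0.13 and 0.82 ± 0.13 (adjusted p 0.00274 and 0.0024), and Sgo1, shugoshin, which guards cohesion at the centromere, -0.73 ± 0.16 and 1.10 ± 0.17 (adjusted p 0.0104, or 0.0605 without WT DSS replicate 2, and 0.00185). Of 20 inner kinetochore genes, 9 rose in ΔNFκB mice and 0 fell. In WT mice 0 rose and 3 fell, the latter near the share of all genes that fell. Cenpm had -0.37 ± 0.25 and 1.72 ± 0.27 (adjusted p 0.284 and 0.00235).

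The surrounding machinery is given by its counts, beside all genes, of which 17.2% rose and 18.8% fell in WT mice and 16.2% rose and 19.2% fell in ΔNFκB mice. Of 18 core subunits and regulators of the anaphase-promoting complex, 5 rose and 0 fell in ΔNFκB mice, where 16.2% of all genes rose, and the median there was 0.09. In WT mice 2 of the 18 rose and 2 fell, beside 36% of all genes that passed. Espl1, separase, rose in ΔNFκB mice by 1.43 ± 0.16 (adjusted p 0.0006). Among 13 other condensin and cohesin genes, 2 rose and 2 fell in ΔNFκB mice, 6 fell in WT mice, and the difference passed for 6. Ncapd2, a condensin subunit, rose in ΔNFκB mice by 1.10 ± 0.14 (adjusted p 0.000845) and was at -0.06 ± 0.14 in WT mice (adjusted p 0.747). Of 20 G2 and M phase regulators, 12 rose and 1 fell in ΔNFκB mice, against 6 and 3 in WT mice. E2f8, an atypical repressor of the E2F family, rose in ΔNFκB mice by 1.98 ± 0.14 (adjusted p 0.000122). Its WT value of 0.42 ± 0.14 (adjusted p 0.0458) missed the threshold by DESeq2 (0.172), with a sex term (0.0777), without either mouse of either WT group (0.0628 to 0.196) and without ΔNFκB DSS replicate 1 (0.0722) or 2 (0.0518). Cks2, a Cdk-binding protein, fell in WT mice with -1.32 ± 0.17 (adjusted p 0.00102) and was at 0.03 ± 0.16 in ΔNFκB mice (adjusted p 0.918).

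For G1 cyclins and inhibitors of the cycle, the counts were near those of all genes, of which 36% passed in WT and 35.4% in ΔNFκB mice. Of 9 G1 genes, 3 rose and 1 fell in each genotype, and the difference passed for 1, Ccnd1, cyclin D1, with 0.31 ± 0.17 in WT and 1.64 ± 0.17 in ΔNFκB mice (adjusted p 0.175 and 0.000421; difference 1.33 ± 0.24, adjusted p 0.0128). Of 17 inhibitor and arrest genes, 2 rose and 6 fell in ΔNFκB mice and 1 rose and 5 fell in WT mice. Btg1, an antiproliferative gene, fell in both, with -0.66 ± 0.12 and -1.30 ± 0.12 (adjusted p 0.0043 and 0.000288).

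Cell type markers in the same libraries moved with these genes in part, and their part in the results was not tested. The sum of 9 epithelial markers was 9333 and 11587 CPM in untreated WT mice, 7058 and 6292 in WT mice after DSS, 8378 and 9386 in untreated ΔNFκB mice, and 9710 and 10161 in ΔNFκB mice after DSS. Of those 9 markers, 6 fell in WT mice, 2 rose in ΔNFκB mice, 0 differed between genotypes without DSS, and 5 were higher in ΔNFκB mice after DSS. Over all genes 18.8% fell in WT mice and 16.2% rose in ΔNFκB mice, the latter near the share of the markers. Between genotypes, 0.388% of all genes differed without DSS and 8.32% were higher in ΔNFκB mice after DSS. As a share of this sum, a measure chosen after the data were seen, the 53 genes stood at 28.9% and 24.0% in untreated WT mice, 29.3% and 30.3% in WT mice after DSS, 16.2% and 16.4% in untreated ΔNFκB mice, and 30.6% and 32.5% in ΔNFκB mice after DSS. On this measure both untreated ΔNFκB libraries lay below the other 6, which ran from 24.0% to 32.5%. WT mice after DSS, at 29.3% and 30.3%, lay above untreated WT mice, at 28.9% and 24.0%. The lower sum of the 53 genes after DSS in WT mice was not seen in this share, which was not tested. Untreated WT replicate 1, at 28.9%, was close to the WT mice after DSS. Only untreated WT replicate 2, with the highest epithelial sum, 11587 CPM, was apart.

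**Figure D5:**
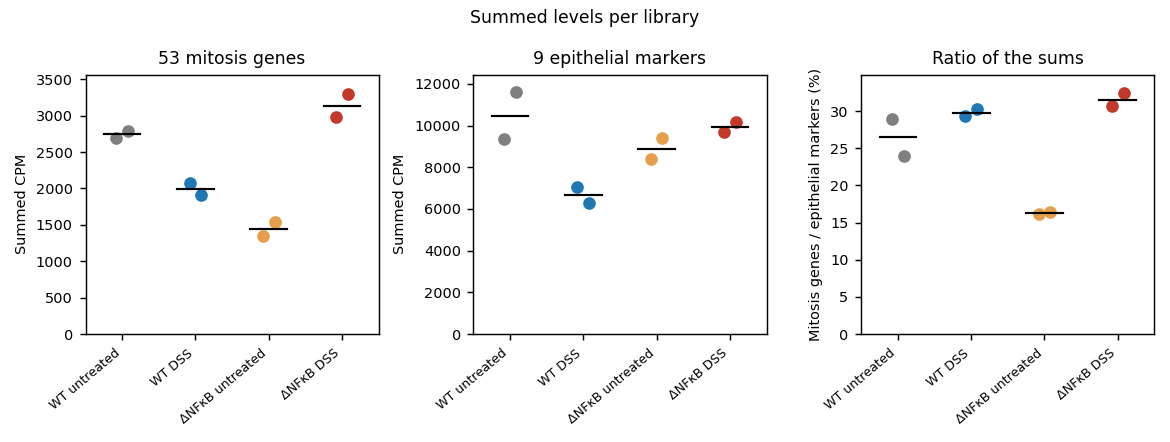
Summed CPM of the 53 mitosis genes (left), summed CPM of 9 epithelial markers (middle) and the first as a percent of the second (right), per library (points) with group means (bars). The mitosis sum is 1354 and 1540 CPM in untreated ΔNFκB mice and 2976 and 3297 after DSS, and the ratio is 16.2% and 16.4% in untreated ΔNFκB mice and at least 24.0% in the other 6 libraries.

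Markers of the crypt base, where stem cells lie, had a lower sum over 8 genes after DSS in both genotypes. It was 275 to 294 CPM untreated and 139 to 158 after DSS in WT mice, and 308 to 313 and 155 to 206 in ΔNFκB mice. Of the 7 tested, 3 fell in WT and 2 in ΔNFκB mice, beside 18.8% and 19.2% of all genes. None rose, although 1 had a positive value in ΔNFκB mice. Olfm4 was at 0 in untreated WT mice. Neutrophil markers summed to 2.55 to 2.62 CPM in untreated WT mice, where Retnlg and Mmp8 were at 0, to 320 to 421 in WT mice after DSS, to 1.71 to 9.15 in untreated ΔNFκB mice and to 78.9 to 79.7 in ΔNFκB mice after DSS. Smooth muscle markers summed to 3650 to 7217 CPM in untreated WT mice and 5726 to 5881 in untreated ΔNFκB mice, and to 1054 to 1312 and 905 to 927 after DSS. Fibroblast markers were at 1128 to 1899 CPM in untreated WT and 1555 to 1587 in untreated ΔNFκB mice, and at 1821 to 2783 and 547 to 690 after DSS.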

How the data were processed

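The labels describe total RNA of distal colon sequenced as paired reads with the TruSeq Total RNA kit. Per the submitters' processing notes, HISAT2 2.1, SAMtools 1.8, featureCounts, Subread 1.6.2 and the mm10 genome were used; annotation and strand setting were not given in the sources used here. The deposited tables hold expected counts per gene without normalization, and 18.8% of nonzero values are not whole, so they were rounded, although whole counts had been planned for; 115 symbols on more than 1 line were summed. Genes were filtered with filterByExpr and scaled by TMM (factors 0.882 to 1.15). One edgeR 4.0.16 quasi-likelihood fit of 4 group means (4 residual and 4.28 prior degrees of freedom, biological coefficient of variation 17.1%) gave log2 fold changes, two-sided tests and Benjamini-Hochberg adjusted p over 17522 genes, with a threshold of 0.05. SE is the size of the log2 fold change over the square root of its F statistic. limma 3.58.1 and DESeq2 1.42.0 (R 4.3.3) and other settings served as alternatives.

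The 53 genes and all lists were chosen with earlier results of these data known. Named were, in each role, the 3 genes with the smallest p for the difference, Cdk1, Ccnb1, Plk1, Mki67, Top2a and Foxm1, genes opposite in direction to their role, and, of each pathway list, up to 3 by the same p, of which the text gives some. Sex was read as male above 5 CPM of Y-linked transcripts. Exon lengths, positions and overlaps come from GENCODE (GRCm38).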

Additional observations from a re-analysis of the deposited data

Results flagged for a closer look

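The test of the difference between the DSS effects of the 2 genotypes passed for 49 of the 53 mitosis genes. Among the genes listed here, the difference was above 2 on the log2 scale for Cdc25c (2.08), Ccnb1 (2.07) and Cdca3 (2.06), and Shcbp1 stood at 2.00. It was 1.97 for Hmmr, 1.92 for Ube2c, 1.88 for Ccna2, 1.86 for Mad2l1, 1.81 for Top2a, 1.79 for Kif20a, 1.78 for Cenpe, 1.76 for Ncapg, 1.73 for Bub1 and for Kif11, 1.71 for Cenpf and 1.70 for Ect2. Values of 1.69 for Nek2, 1.68 for Cdk1 and for Cdc20, 1.64 for Mki67 and for Prc1, 1.5 for Aurka, 1.49 for Plk1, 1.43 for Cenpa and 1.39 for Birc5 followed. It stood at 1.28 for Bub1b, 1.25 for Racgap1, 1.19 for Kif23 and 1.07 for Foxm1. Groups of 2 mice allowed no test for a sample far from the others.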

How the results depend on the processing

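Of 53 genes, 26 passed for DSS in WT mice, 50 for DSS in ΔNFκB mice, 20 between genotypes without DSS, 35 after DSS and 49 for the difference of the effects. RLE and upper quartile factors, limma-voom, a filter of CPM of at least 1 in 2 libraries and genes of immune receptors, mitochondria and ribosomal RNA left out kept all 5 counts within 1.5 times. A sex term gave 16 in WT mice and 38, 20, 35 and 47 for the other 4 counts in that order. Without DSS, DESeq2 gave 38, no filter 42, the 2 groups alone 0 (46 at an unadjusted p under 0.05) and the replicate block 0 (47 at an unadjusted p under 0.05). With each library left out in turn, when the lone mouse of a group is assumed to vary like the others, the counts were 13 to 26, 44 to 50, 0 to 21, 1 to 33 and 35 to 48. The replicate block left 26, 50, 32 and 50 for the other 4 counts; replicate deviations of same-numbered mice correlated at -0.112 to 0.266, so no pairing of the numbers was assumed.

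Among the genes chosen by the rule for named genes, signs turned for values that did not pass. In WT mice a sex term gave -0.025 for Cdc25b, -0.021 for Nek2 and 0.33 for Ccne2; with each library left out in turn, Ube2c ran from -0.091 to 0.30 and Aurka from -0.068 (each without WT DSS replicate 1) to 0.21, Ccne2 from -0.81 to 0.36 (without untreated WT replicate 2) and Ncapd2 from -0.18 to 0.13 (without untreated WT replicate 1). In ΔNFκB mice Cks2 was at -0.032 with upper quartile factors and from -0.056 (without ΔNFκB DSS replicate 2; also below 0 without untreated ΔNFκB replicate 2) to 0.14 with a library left out, and Rad21 at -0.0047 with a sex term. Between genotypes without DSS, Ccne2 ran from -0.91 to 0.26 (without untreated WT replicate 2). Outside that rule, Spc24 after DSS ran from -0.018 to 0.20 and Cdca5 in WT mice from -0.16 to 0.041 with a library left out, neither passing. The cause was not tested. Groups of 2 mice and 9229861 to 16935961 counts per library limit what small differences can show.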

Other observations

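Other cell type markers, as summed levels, gave the following values. Macrophage markers stood at 125 to 169 CPM in untreated WT mice, 237 to 254 in WT mice after DSS, 122 to 133 in untreated ΔNFκB mice and 169 to 173 in ΔNFκB mice after DSS. B and plasma cell markers were at 377 to 505, 278 to 341, 254 to 385 and 258 to 338 CPM in the same order of groups. T and NK cell markers were at 4.95 to 7.58, 25.8 to 33.1, 3.82 to 28.3 and 21.2 to 23.9 CPM. Untreated ΔNFκB replicate 1 held the higher value of its group. Endothelial markers were at 93.5 to 127, 138 to 189, 99.0 to 125 and 33.4 to 44.5 CPM, enteric nerve and glia markers at 35.6 to 35.7, 28.4 to 35.4, 29.7 to 34.8 and 5.26 to 5.84, and red blood cell markers at 19.6 to 20.1, 10.5 to 21.4, 12.9 to 23.6 and 4.41 to 4.95. The last 3 lists were lowest in ΔNFκB mice after DSS, the group in which 37 of the mitosis genes were highest.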
